A study of Homo sapiens with 29 samples.

Results

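Cells repair broken and cross-linked DNA with dedicated sets of proteins, and 35 genes of that machinery were followed here in human fibroblasts entering oncogene-induced senescence (OIS), the arrest that an active oncogene imposes. The 35 genes were taken as a fixed list of symbols covering homologous recombination, the Fanconi anemia pathway, mismatch repair and the damage checkpoint. The rule that lists them uses no expression value, but the list was chosen with earlier results of these data known. All 35 were found among the 28266 gene symbols of the count table. The measurements are RNA sequencing of IMR90 ER:RAS cells, a lung fibroblast line carrying, from a retroviral vector, an estrogen receptor and oncogenic RAS fusion (RASG12V) that 4-hydroxytamoxifen (4OHT) switches on. By the labels and methods, the cells of every group carried this fusion, were reverse transfected with siRNA 1 day before induction, and gave RNA at day 7. DMSO_siNT cells received DMSO, the vehicle control of the labels, and non-targeting siRNA. 4OHT_siNT cells received 4OHT and the same non-targeting siRNA. 4OHT_siSMARCA4 cells received 4OHT and siRNA against SMARCA4, an ATPase of the SWI/SNF chromatin remodeling complex. Each group held 6 libraries, made with 2 siRNAs numbered 2 and 4. SMARCA4 was knocked down only in 4OHT-treated cells among the libraries analyzed, so the effect of the knockdown in vehicle-treated cells was not analysed here.

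Homologous recombination copies the sister chromatid to mend a double-strand break, so it works in S and G2 phases of the cell cycle. The broken end is first resected, BRCA1 and BRCA2 then help to prepare the single-stranded DNA for strand invasion, and further recombination proteins assist the pairing of strands. The Fanconi anemia core complex attaches ubiquitin to FANCD2 and FANCI at DNA cross-links and hands the lesion to recombination. ATM and ATR are the kinases that sense breaks and single-stranded DNA, and they pass the signal to CHEK2 and CHEK1. In OIS, oncogene-driven replication stress and a lasting DNA damage response are known features.

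The DMSO_siNT libraries held 9657309 to 13448183 counts each. Those of 4OHT_siNT held 13237672 to 15407710, and those of 4OHT_siSMARCA4 held 11382143 to 18039313. The set names in the labels (V or VM, meaning not stated) were not balanced, since all 4OHT_siNT libraries belonged to VM sets, DMSO_siNT had 3 of each, and 4OHT_siSMARCA4 had 3 V, 2 VM and 1 library with no matching label, called the unlabelled library. Values within VM sets are therefore given beside the calls they change. The header of the unlabelled library names a VM set that no sample label with its siRNA has, so VM-set values leave it out. Nothing in the labels says that libraries came from separate cultures, so p-values measure the spread between these libraries, which may be technical. The DMSO_siNT library with siRNA 4 and set 2V, called 4-2V, stood apart from the rest of its group. It had the lowest total, the most genes detected (17915) and only 29.5 CPM (counts scaled to library size) of ESR1, a gene whose sequence is part of the fusion, against 1034 to 1316 CPM in the other 5 libraries. HRAS was at 436.5 CPM there and at 2165 to 2852 CPM in the other 5. These values go against the label of this library, and whether it is the labelled sample cannot be told from the files. Member calls that turn on it are therefore given with and without it, and so are several values that it shifts. VIM, a mesenchymal filament gene expected in fibroblasts, was at 4107 to 8027 CPM in all libraries. Other fibroblast markers were not as even. DCN was at 490.5 to 893.5 CPM in DMSO_siNT and 14.9 to 18.7 CPM in 4OHT_siNT, and LUM at 60.4 to 168 and 19.5 to 26.5 CPM. Over DMSO_siNT, 4OHT_siNT and 4OHT_siSMARCA4, the 9 fibroblast markers summed to 15260 to 39750, 19800 to 31380 and 10690 to 18750 CPM. The 4 epithelial markers summed to 34.1 to 52.9, 1.30 to 2.01 and 0.432 to 1.35 CPM in this order, almost all of it KRT19 in DMSO_siNT, with KRT5 at 0 counts throughout. The 5 immune markers summed to 45.04 to 59.4, 47.7 to 69.5 and 48.1 to 74.9 CPM, nearly all CD68, while PTPRC did not exceed 0.359 CPM. The 4 endothelial markers summed to 1.35 to 2.39, 4.29 to 5.53 and 1.30 to 5.78 CPM. Their part in the results was not tested.

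SMARCA4 itself (chromosome 19, 10960932 to 11079426, hg38, GENCODE 44) was examined first. Its lowest, median and highest levels were 275, 297 and 330 CPM in 4OHT_siNT, and 70.4, 89.9 and 141 CPM in 4OHT_siSMARCA4. Every knockdown library lay below every 4OHT_siNT library, 3.04-fold lower on average (SE of the log2 fold change 0.14, n = 6 and 6; edgeR adjusted p = 1.3e-06). Within VM sets the log2 fold change was −1.95. In 4OHT_siNT, SMARCA4 was itself higher than in DMSO_siNT (189, 219 and 232 CPM), by 0.47 ± 0.14 on the log2 scale (adjusted p = 0.00769). Values after ± are SEs of log2 fold changes from here on.

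To ask what OIS did to the repair and checkpoint genes, 4OHT_siNT was compared with DMSO_siNT. Most of the machinery fell. Of the 34 members tested, 24 were called lower, 0 were called higher and 10 were not called (edgeR quasi-likelihood test, adjusted p under 0.05 over all genes). Among all 13136 genes tested, 28.9% were called lower and 23.9% higher. The median log2 fold change was −1.43 over the 34 members and −0.053 over all genes. In the higher direction NBN alone was higher at an unadjusted p under 0.05 (1 member), and DESeq2 called it. The remaining member, FANCB, had too few counts for the test. Without 4-2V, FANCB passed the filter and 26 members were lower and 2 higher, where 30.3% of all genes were lower and 27.9% higher. Within VM sets 25 were lower and 1 higher, where 27.9% of all genes were lower and 25.6% higher. In bulk RNA, fewer cells expressing a gene and less RNA per cell cannot be told apart.

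**Figure D1:**
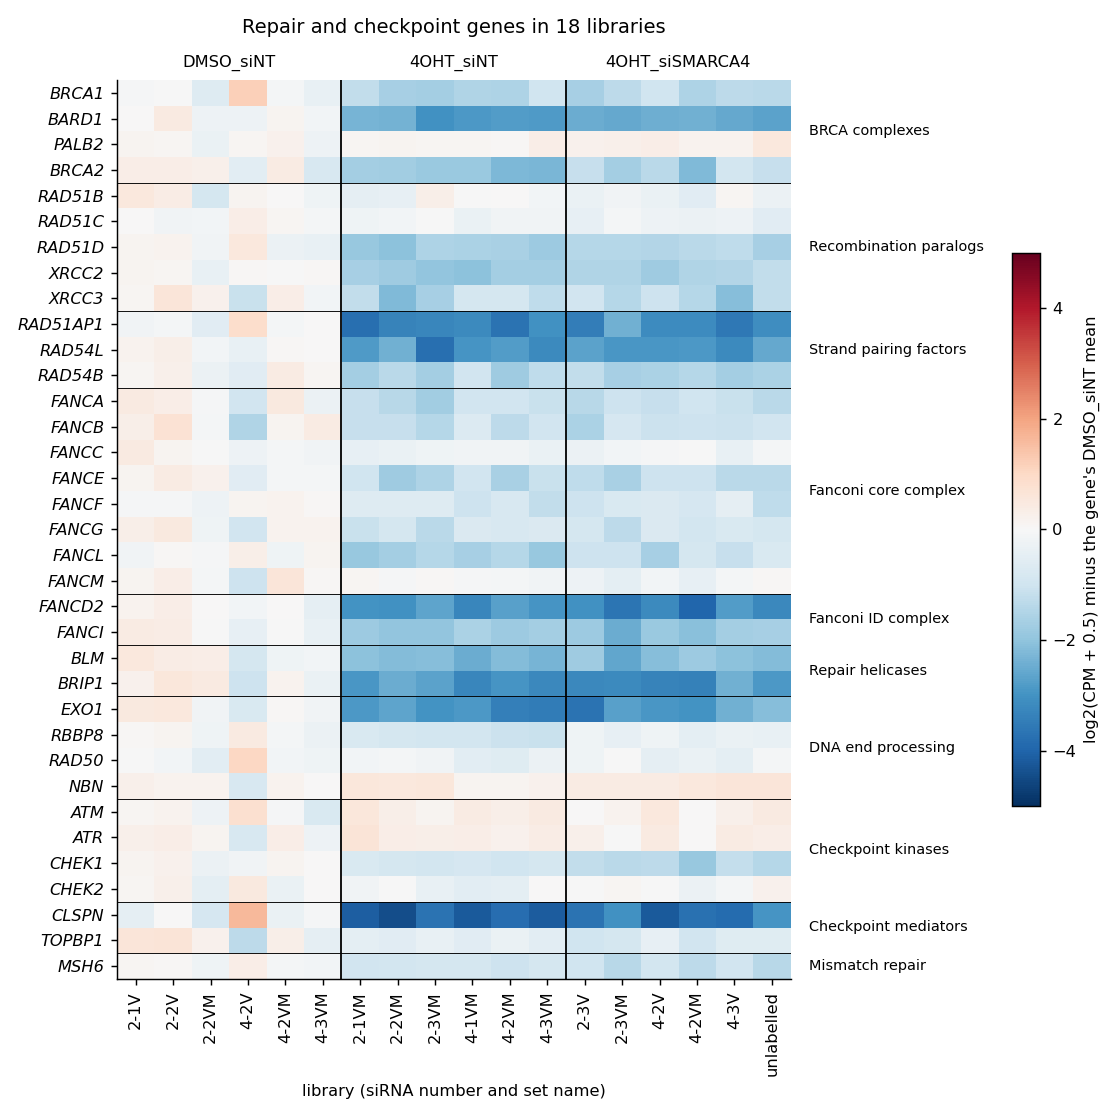
Heat map of the 35 genes (rows, grouped by role) in the 18 libraries (columns, named by siRNA number and set). Color is log2(CPM + 0.5) minus the mean of the gene in DMSO_siNT, with blue for lower. Blue rows in both 4OHT groups include CLSPN, RAD51AP1, EXO1 and FANCD2, whereas ATM, ATR, NBN and PALB2 stay pale, and the column of DMSO_siNT 4-2V differs from its neighbors.

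The 3 factors that assist strand pairing all fell. RAD51AP1 (chromosome 12, 4538798 to 4560047, plus strand, hg38 as for all positions here), which stimulates strand pairing, was at 6.21, 8.77 and 17.8 CPM (lowest, median and highest) in DMSO_siNT and at 0.219, 0.501 and 0.703 CPM in 4OHT_siNT. The groups did not overlap, and RAD51AP1 fell by 4.38 ± 0.34 on the log2 scale (20.8-fold; adjusted p = 2.16e-09). Its highest DMSO_siNT library was 4-2V, without which RAD51AP1 fell by 4.13. RAD54L (chromosome 1, 46246461 to 46278480, plus strand), a motor protein that remodels DNA during recombination, went from 4.78, 6.38 and 7.74 CPM to 0, 0.404 and 0.761 CPM, again without overlap. It fell by 4.01 ± 0.34 on the log2 scale (adjusted p = 9.68e-09). RAD54B, its relative, fell by 1.70 ± 0.21.

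Of the 4 BRCA complex genes, 3 fell and 1 did not pass the test. BARD1 (chromosome 2, 214725646 to 214809683, minus strand), the obligate partner of BRCA1, was at 4.42, 5.07 and 7.41 CPM in DMSO_siNT and at 0.222, 0.327 and 0.655 CPM in 4OHT_siNT. It fell by 3.69 ± 0.24 on the log2 scale (12.9-fold; adjusted p = 2.12e-10), with no overlap between groups. BRCA2, a mediator of recombination, fell by 2.73 ± 0.34, from 19 to 63 counts per DMSO_siNT library to 4 to 10 counts per 4OHT_siNT library. BRCA1 fell by 1.64 ± 0.26. This value included 4-2V, which had 30.2 CPM of BRCA1 where the other 5 had 8.14 to 13.1 CPM, and without it BRCA1 fell by 1.29 (adjusted p = 1.04e-06). PALB2, the bridge between BRCA1 and BRCA2, was at 8.64 to 12.8 CPM in DMSO_siNT and 11.5 to 13.8 CPM in 4OHT_siNT, and its log2 fold change of 0.13 ± 0.11 was not called (adjusted p = 0.355).

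The recombination paralogs RAD51B, RAD51C, RAD51D, XRCC2 and XRCC3 were not uniform. XRCC2 fell by 2.52 ± 0.20 on the log2 scale, RAD51D by 1.91 ± 0.16 and XRCC3 fell by 1.61 ± 0.31. Without 4-2V, the highest DMSO_siNT library for RAD51D at 18.8 CPM, RAD51D fell by 1.77. The XRCC3 groups overlapped only through 4-2V, and XRCC3 was not called with siRNA 4 alone (log2 fold change −0.97, adjusted p = 0.0532). RAD51B (−0.18 ± 0.24, adjusted p = 0.541) and RAD51C (−0.19 ± 0.11, adjusted p = 0.159) were not called.

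In the Fanconi anemia pathway the ID complex, the pair that receives ubiquitin, fell. FANCD2 (chromosome 3, 10026370 to 10101932, plus strand) was at 6.26, 8.86 and 11.0 CPM in DMSO_siNT and at 0.445, 0.679 and 0.961 CPM in 4OHT_siNT. All 4OHT_siNT libraries were below all DMSO_siNT libraries, and FANCD2 fell by 3.61 ± 0.27 on the log2 scale (12.2-fold; adjusted p = 1.69e-09). FANCI, its partner, fell by 1.92 ± 0.17. Of the 7 core complex genes tested, 5 were called lower. FANCL, the ubiquitin ligase subunit, fell most among them, by 1.87 ± 0.18 on the log2 scale. FANCE fell by 1.49 ± 0.21, FANCA by 1.37 ± 0.22, FANCG by 1.06 ± 0.20 and FANCF by 0.88 ± 0.15. FANCG libraries overlapped only through 4-2V, at 5.62 CPM. FANCC (−0.31 ± 0.13, adjusted p = 0.052) and FANCM (−0.14 ± 0.20, adjusted p = 0.583) were not called. Without 4-2V FANCC was called lower (−0.35, adjusted p = 0.0213), as it was without DMSO_siNT 4-3VM (−0.34, adjusted p = 0.0429). FANCB had a median of 1.53 CPM in DMSO_siNT and 0.284 CPM in 4OHT_siNT, with 4-2V the lowest DMSO_siNT library at 0.12 CPM. In the 13 leave-one-out fits in which it was tested, its log2 fold change was −2.43 to −2.02 and it was called in each.

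Both repair helicases fell. BRIP1, the BRCA1-associated helicase also known as FANCJ, fell by 3.58 ± 0.31 on the log2 scale (11.9-fold). BLM, which dissolves crossed DNA strands, fell by 3.17 ± 0.29. Their adjusted p-values were 1.43e-08 and 3.2e-08.

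DNA end processing genes were split. EXO1 (chromosome 1, 241847967 to 241895148, plus strand), the long-range resection exonuclease, was at 3.94, 6.80 and 10.4 CPM in DMSO_siNT and at 0.156, 0.477 and 0.692 CPM in 4OHT_siNT. It fell by 4.09 ± 0.39 on the log2 scale (17.0-fold; adjusted p = 4.67e-08) with no overlap. RBBP8, which encodes CtIP and starts resection, fell by 0.98 ± 0.12. Without 4-2V, its highest DMSO_siNT library, RBBP8 fell by 0.87. RAD50 (−0.39 ± 0.20, adjusted p = 0.113) and NBN (0.34 ± 0.14, adjusted p = 0.0556), both subunits of the break-sensing MRN complex, were not called. Here 4-2V was the highest DMSO_siNT library for RAD50 (147 CPM, others 48.4 to 69.3 CPM) and the lowest for NBN (30.5 CPM, others 53.2 to 62.8 CPM). Without it NBN was called higher (0.22, adjusted p = 0.0456) and the RAD50 value was −0.086 (adjusted p = 0.529). RAD50 was called lower with siRNA 4 alone (−0.81, adjusted p = 0.0104), the arm that holds 4-2V, and without DMSO_siNT 2-2VM (−0.48, adjusted p = 0.0447). NBN was called higher in 6 of 18 leave-one-out fits.

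The checkpoint genes did not change alike. CLSPN (chromosome 1, 35720218 to 35769978, minus strand) encodes claspin, the adaptor through which ATR activates CHEK1 at stalled forks. It was at 11.6, 18.4 and 66.5 CPM in DMSO_siNT and at 0.484, 0.716 and 1.18 CPM in 4OHT_siNT. CLSPN had the largest change of the 34 members tested and fell by 4.95 ± 0.44 on the log2 scale (adjusted p = 1.94e-08). The highest DMSO_siNT value was 4-2V, and without it CLSPN fell by 4.39 (adjusted p = 1.86e-11), still larger than that of any other member. TOPBP1, which switches ATR on, fell by 0.63 ± 0.23 (adjusted p = 0.0283), but its groups overlapped. TOPBP1 was called in 12 of 18 leave-one-out fits, with adjusted p from 0.000144 to 0.0831. The lowest came without 4-2V, with a log2 fold change of −0.79. TOPBP1 was at 9.80 CPM in 4-2V and at 18.3 to 40.2 CPM in the other 5 DMSO_siNT libraries. Within VM sets its value was −0.54 (adjusted p = 0.00426). It was not called with siRNA 4 alone (−0.13, adjusted p = 0.72), the arm that holds 4-2V. Nor was it called when only these 2 groups were fitted (adjusted p = 0.0689).

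Of the 4 checkpoint kinases, only CHEK1 passed the test in all libraries. CHEK1 (chromosome 11, 125625163 to 125676255, plus strand) was at 18.1, 23.4 and 25.5 CPM in DMSO_siNT and at 10.9, 11.9 and 12.7 CPM in 4OHT_siNT. It fell by 0.92 ± 0.12 on the log2 scale (1.89-fold; adjusted p = 2.9e-06) with no overlap. CHEK2 was at 4.50, 6.95 and 9.32 CPM and at 4.45, 5.39 and 6.72 CPM, which overlapped, and was not called (−0.29 ± 0.17, adjusted p = 0.162). ATR was at 14.1, 28.2 and 31.2 CPM in DMSO_siNT and 28.9, 31.1 and 38.3 CPM in 4OHT_siNT (0.32 ± 0.16, adjusted p = 0.0981). ATM was at 21.6, 37.5 and 64.7 CPM in DMSO_siNT and 41.0, 47.0 and 54.8 CPM in 4OHT_siNT (0.29 ± 0.18, adjusted p = 0.183). The ATM call turned on 1 library, as 4-2V was the highest of DMSO_siNT. Without it ATM was called higher (0.50, adjusted p = 0.00323), as it was within VM sets (0.71, adjusted p = 0.000415).

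**Figure D2:**
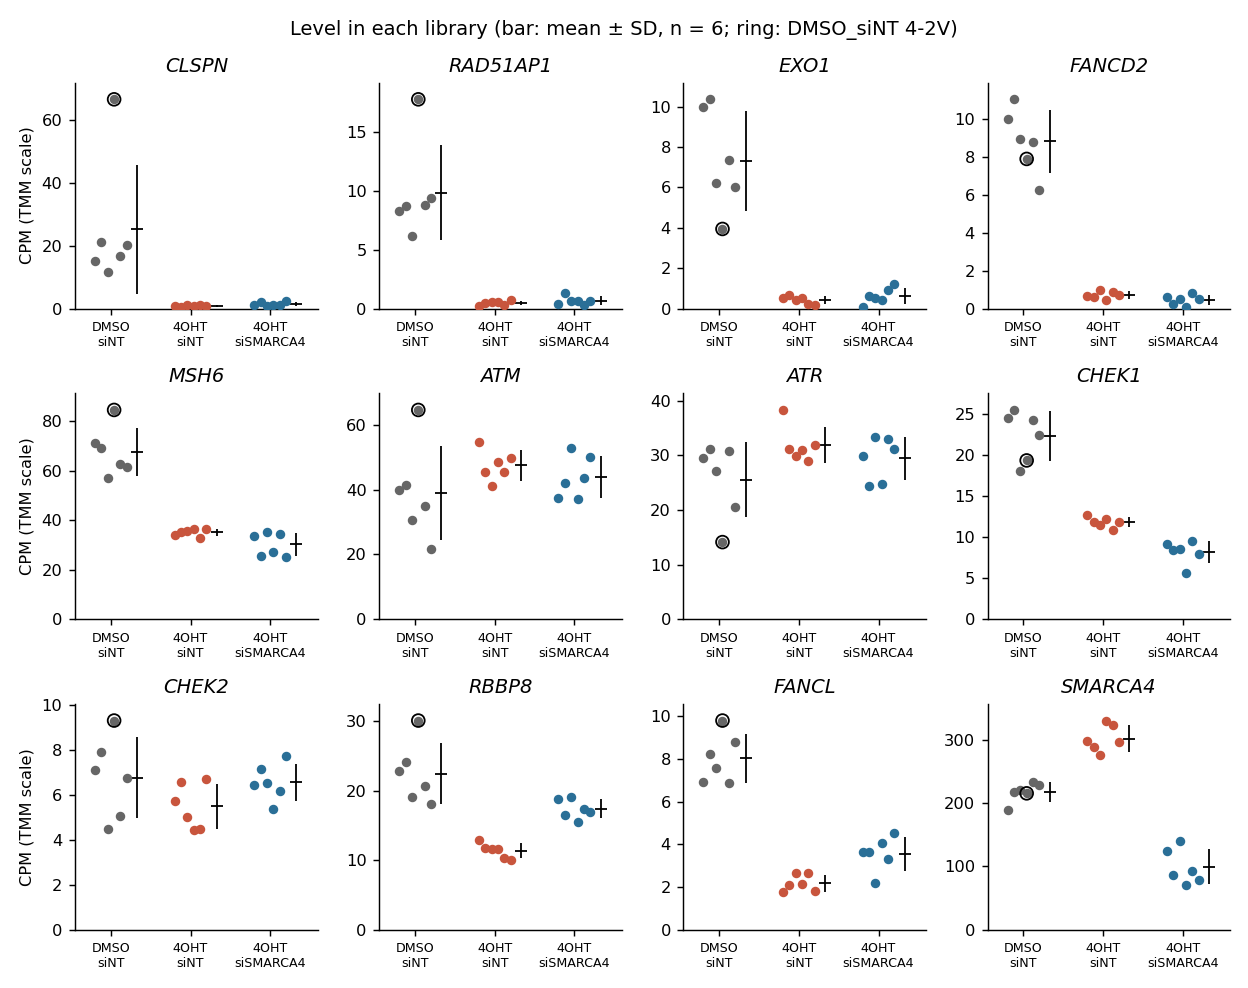
CPM of 12 genes in each library, on linear axes that start at 0. Points are libraries, bars beside them give the mean ± SD (n = 6) and a ring marks DMSO_siNT 4-2V. CLSPN, RAD51AP1, EXO1 and FANCD2 sit near the axis in both 4OHT groups, the ATM, ATR and CHEK2 groups overlap, and CHEK1 steps down at each comparison.

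MSH6, the single mismatch repair gene in the list, recognizes mispaired bases. It ranged from 57.1 to 84.6 CPM in DMSO_siNT and from 32.8 to 36.4 CPM in 4OHT_siNT. MSH6 fell by 0.95 ± 0.11 on the log2 scale (adjusted p = 6.9e-07). The highest of these libraries was 4-2V, and without it MSH6 fell by 0.87.

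Levels were also compared between genes, as mean CPM per kb of the Ensembl canonical transcript, a length taken from GENCODE 44 and not from the authors' counting. In DMSO_siNT the highest per-length levels were those of MSH6 (15.9 CPM per kb), NBN (11.8) and RAD50 (9.17), and the lowest were those of BRCA2 (0.305) and FANCB (0.471). In 4OHT_siNT NBN was highest, at 14.9 CPM per kb, followed by MSH6 at 8.23 and RAD50 at 7.01. BRCA2 was again lowest, at 0.0454 CPM per kb. BARD1, BLM, CLSPN and BRIP1 were also under 0.1 CPM per kb there, at 0.0746, 0.0874, 0.0938 and 0.0998. ATM and ATR, at 3.68 and 3.91 CPM per kb in 4OHT_siNT, were above CHEK1 at 2.87 CPM per kb, whereas in DMSO_siNT CHEK1 (5.42) was above ATM (3.01) and ATR (3.13). These are levels, and no test was run between genes.

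Because many of these genes moved together, promoters are shown for the 6 members with the largest falls over all libraries. RefSeq windows (GRCh38.p14) from 250 bases before to 50 after each annotated start were found for 32 of the 35 members. FANCI, NBN and RAD54B had no window. Letters of E2F-type sites (TTTGGCGC, TTTCCCGC, TTTCGCGC or TTTGCCGC on either strand) are in capitals. E2F factors are known to control S-phase genes. The windows lie at chr1:35769929-35770228 (minus strand) for CLSPN, chr12:4538640-4538939 (plus) for RAD51AP1, chr1:241847954-241848253 (plus) for EXO1, chr1:46247438-46247737 (plus) for RAD54L, chr2:214809634-214809933 (minus) for BARD1 and chr3:10026187-10026486 (plus) for FANCD2. EXO1 and RAD54L each had 2 windows, of which the first is shown.
CLSPN: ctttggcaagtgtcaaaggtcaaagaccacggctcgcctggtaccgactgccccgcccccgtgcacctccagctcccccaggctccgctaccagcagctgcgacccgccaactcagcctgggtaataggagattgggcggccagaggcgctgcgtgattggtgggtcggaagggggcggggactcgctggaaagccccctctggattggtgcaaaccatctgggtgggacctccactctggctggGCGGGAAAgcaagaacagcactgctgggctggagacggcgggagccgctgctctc
RAD51AP1: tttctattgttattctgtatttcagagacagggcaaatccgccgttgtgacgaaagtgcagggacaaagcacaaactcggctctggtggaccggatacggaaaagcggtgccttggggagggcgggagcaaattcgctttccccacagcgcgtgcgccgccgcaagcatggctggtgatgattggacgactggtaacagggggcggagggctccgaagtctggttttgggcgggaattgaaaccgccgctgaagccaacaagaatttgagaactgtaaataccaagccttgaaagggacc
EXO1: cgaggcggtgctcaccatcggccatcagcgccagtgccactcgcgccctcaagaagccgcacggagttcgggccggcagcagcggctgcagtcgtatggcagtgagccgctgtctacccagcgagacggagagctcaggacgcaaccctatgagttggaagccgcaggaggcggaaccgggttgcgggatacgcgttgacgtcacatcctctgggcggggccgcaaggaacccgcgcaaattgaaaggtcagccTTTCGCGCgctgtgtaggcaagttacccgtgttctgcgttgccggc
RAD54L: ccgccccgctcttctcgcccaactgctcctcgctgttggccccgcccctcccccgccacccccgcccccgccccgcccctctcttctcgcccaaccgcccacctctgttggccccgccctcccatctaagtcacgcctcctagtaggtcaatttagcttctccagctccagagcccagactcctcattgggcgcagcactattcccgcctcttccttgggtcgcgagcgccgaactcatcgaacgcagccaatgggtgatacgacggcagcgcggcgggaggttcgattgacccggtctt
BARD1: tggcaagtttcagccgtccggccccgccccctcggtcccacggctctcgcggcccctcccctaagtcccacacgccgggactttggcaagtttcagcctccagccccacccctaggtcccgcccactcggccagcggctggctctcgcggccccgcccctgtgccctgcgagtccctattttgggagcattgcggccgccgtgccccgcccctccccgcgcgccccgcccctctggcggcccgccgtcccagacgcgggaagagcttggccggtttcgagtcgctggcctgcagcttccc
FANCD2: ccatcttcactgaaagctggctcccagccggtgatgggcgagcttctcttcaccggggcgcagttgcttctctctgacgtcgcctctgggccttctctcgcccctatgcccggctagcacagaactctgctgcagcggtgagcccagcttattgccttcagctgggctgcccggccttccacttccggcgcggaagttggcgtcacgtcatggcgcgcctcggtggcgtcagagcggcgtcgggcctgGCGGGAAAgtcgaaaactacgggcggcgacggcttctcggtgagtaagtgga

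In CLSPN, EXO1 and FANCD2 the match starts −5, 4 and −2 bases from the annotated start, and the windows shown for RAD51AP1, RAD54L and BARD1 hold none of these letters. The choice of FANCD2 turned on 4-2V, without which BRIP1 (−3.72) fell more than FANCD2 (−3.63). The BRIP1 window held no E2F-type match. Among the 22 members called lower in 4OHT_siNT that had a window, 7 (31.8%) held an E2F-type match in at least 1 window, CLSPN, EXO1, FANCA, FANCD2, MSH6, TOPBP1 and XRCC2. Among the 9 members tested and not called, 1 did, FANCC. Of all 32 members with a window, whatever their call, 8 held a match. Counted by gene in the same way, 6.65% of the genes tested that had a window held a match, and 3.99% of all genes with a window. Whether a match goes with being called lower was not tested. By window, 17.4% of the 46 member windows held a match, against 3.31% of all 35116 windows and 4.86% of windows of the genes tested. The cell cycle homology region (TTTGAA or TTCGAA) was in 6.52% of member windows, 11.9% of tested-gene windows and 16.4% of all windows. The CCAAT box was in 41.3%, 34.5% and 34.6%, in this order. CCAAT was in the windows of CLSPN, RAD51AP1 and RAD54L. A match is a description of letters and not of a bound site.

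**Figure D3:**
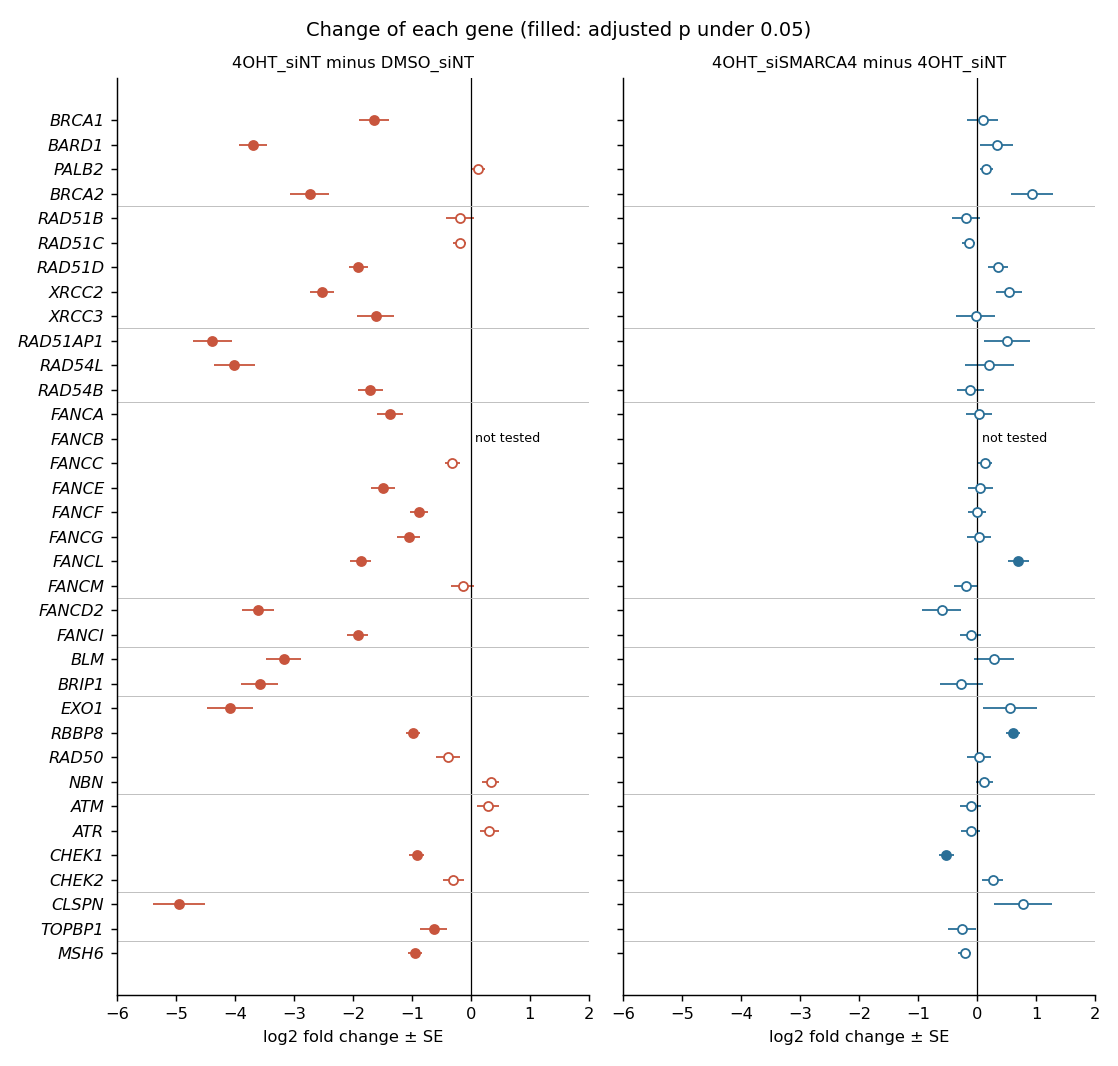
Log2 fold change ± SE of each gene for 4OHT_siNT minus DMSO_siNT (left) and for 4OHT_siSMARCA4 minus 4OHT_siNT (right), grouped by role. Filled points were called at an adjusted p under 0.05. On the left 24 genes are filled, all below 0, from CLSPN at −4.95 to TOPBP1 at −0.63. On the right RBBP8, FANCL and CHEK1 are filled.

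Other repair lists were read beside these genes, against the 28.9% of all genes called lower and 23.9% called higher. Of 35 other homologous recombination and Fanconi genes tested, 17 fell and 3 rose at this threshold (48.6% and 8.57%; median log2 fold change −0.37). RMI2, part of the BLM complex, fell by 3.16 ± 0.43 and MND1, a meiotic recombination factor, had a value of −3.08 ± 0.48. EME2, a nuclease subunit, rose by 1.44 ± 0.33 and SLX4, a nuclease scaffold, by 0.96 ± 0.31. Without 4-2V the values of RMI2, MND1, EME2 and SLX4 were −2.61, −2.85, 1.23 and 0.75. Of 26 other checkpoint and damage-signalling genes, 1 was called higher and 15 lower (3.85% and 57.7%; median −0.52). PKMYT1, a kinase that holds CDK1 inactive, fell by 3.84 ± 0.27 and CDC25C, the phosphatase that activates CDK1, had −3.63 ± 0.32. HUS1, part of the 9-1-1 clamp, rose by 0.37 ± 0.12.

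The lists of end joining, nucleotide excision and base excision repair genes had medians near 0. Of 12 non-homologous end joining genes, 2 were lower (XRCC4, −1.04 ± 0.27, and DCLRE1C, −0.78 ± 0.24) and 2 were higher (POLM, 0.80 ± 0.25, and LIG4, 0.47 ± 0.11), or 16.7% each way, with a median of −0.04. Without 4-2V the DCLRE1C value was −0.37. Of 19 nucleotide excision repair genes 6 were lower and 5 higher (31.6% and 26.3%, near the shares of all genes; median −0.081). ERCC1, a subunit of the XPF nuclease, rose by 1.29 ± 0.15 and ERCC5, the XPG nuclease, by 1.13 ± 0.37. XPA, a damage-verifying scaffold, fell by 1.35 ± 0.35 and GTF2H5, a TFIIH subunit, by 1.16 ± 0.27, and without 4-2V these falls were 0.70 and 0.71. Of 18 base excision repair genes 5 were lower and 4 higher (27.8% and 22.2%, also near them; median −0.090). NEIL3, a glycosylase expressed in dividing cells, fell by 4.91 ± 0.51, and NEIL1 had −0.91 ± 0.37, which was not called without 4-2V (−0.48, adjusted p = 0.19). Without 4-2V, where 30.3% of all genes were lower and 27.9% higher, 16 of the other homologous recombination and Fanconi genes were called lower and 6 higher (45.7% and 17.1%), and 6 base excision repair genes lower and 7 higher (33.3% and 38.9%). XRCC1, the scaffold of single-strand break repair, rose by 0.88 ± 0.24.

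Proliferation markers moved with the repair genes. All 25 proliferation genes tested were called lower (median −4.19), and MKI67 fell by 5.74 ± 0.36 (MYBL2, −5.62 ± 0.40). Their summed level was 799 to 1269 CPM in DMSO_siNT and 100 to 124 CPM in 4OHT_siNT. The summed level of the 35 repair and checkpoint genes was 486 to 674 CPM and 340 to 402 CPM, respectively. The part of the share of cycling cells in the repair gene result was not tested.

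**Figure D4:**
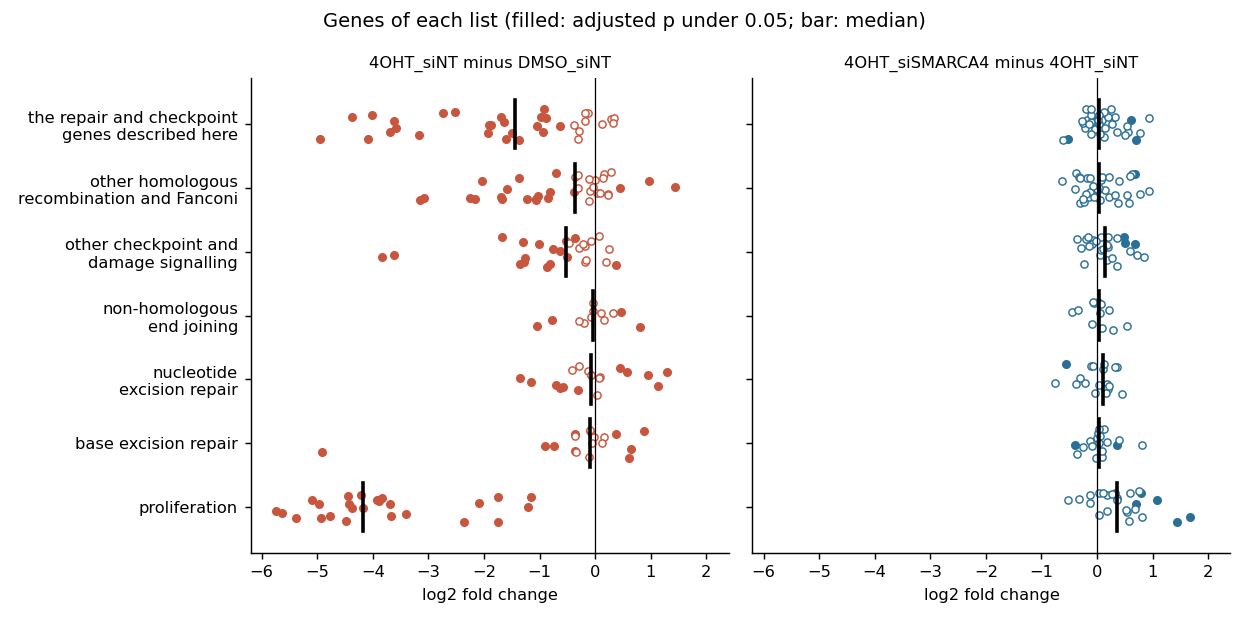
Log2 fold change of each tested gene (points) by list (rows) for 4OHT_siNT minus DMSO_siNT (left) and 4OHT_siSMARCA4 minus 4OHT_siNT (right). Filled points were called at an adjusted p under 0.05 and black bars are medians. On the left the medians are −1.43 for the genes described here and −4.19 for the proliferation genes, and those of end joining and of nucleotide and base excision repair lie between −0.1 and 0.

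Whether SMARCA4 knockdown altered these genes in senescent cells was asked by comparing 4OHT_siSMARCA4 with 4OHT_siNT. Few of them changed. RBBP8 and FANCL were called higher, CHEK1 was called lower and 31 of 34 were not called, with a median log2 fold change of 0.039. Among all genes, 4.99% were called higher and 5.65% lower, and the members' shares were 5.88% and 2.94%. Without 4-2V, which is in neither group but is part of the shared fit, the counts were again 2 higher and 1 lower, where 11.7% of all genes were higher and 12.9% lower. With the set label as a block, in 17 libraries, 0 of the 3 calls passed (adjusted p = 0.115 for RBBP8, 0.425 for FANCL and 0.0928 for CHEK1). Within VM sets 2 were higher and 3 lower, where 8.76% of all genes were higher and 12.2% lower.

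RBBP8 (chromosome 18, 22798261 to 23026488, plus strand) was at 10.1, 11.6 and 13.0 CPM (lowest, median and highest) in 4OHT_siNT and at 15.6, 17.2 and 19.1 CPM in 4OHT_siSMARCA4. Every knockdown library was above every 4OHT_siNT library, and RBBP8 rose by 0.61 ± 0.12 on the log2 scale (1.53-fold; adjusted p = 0.0024). In DMSO_siNT it was at 18.1, 21.8 and 30.1 CPM, so the knockdown levels lay between those of the other groups and overlapped DMSO_siNT. With siRNA 2 alone RBBP8 was not called (0.52, adjusted p = 0.0673), and with siRNA 4 alone it was (0.69, adjusted p = 0.0359).

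FANCL (chromosome 2, 58159243 to 58241410, minus strand) was at 1.75, 2.11 and 2.66 CPM in 4OHT_siNT and at 2.19, 3.64 and 4.52 CPM in 4OHT_siSMARCA4. It rose by 0.70 ± 0.18 on the log2 scale (1.62-fold; adjusted p = 0.017), and the groups overlapped through 1 knockdown library, 4-2V of that group. Its counts were low, 23 to 56 per library in these groups, and the highest was the unlabelled library, without which FANCL was not called (0.60, adjusted p = 0.0542). It was called with siRNA 2 alone (0.87, adjusted p = 0.0459) but not with siRNA 4 alone (0.49, adjusted p = 0.332). Exons of VRK2 lie on the opposite strand of FANCL, and VRK2 was at 14.8 to 19.7 CPM in 4OHT_siNT and 14.5 to 19.2 CPM in 4OHT_siSMARCA4.

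CHEK1 went further in the direction it took in OIS. It was at 10.9, 11.9 and 12.7 CPM in 4OHT_siNT and at 5.62, 8.51 and 9.48 CPM in 4OHT_siSMARCA4. All knockdown libraries were below all 4OHT_siNT libraries, and CHEK1 fell by 0.52 ± 0.12 on the log2 scale (1.44-fold; adjusted p = 0.00932). Within VM sets the fall was 0.76 (adjusted p = 0.00589). It was not called with siRNA 2 alone (−0.50, adjusted p = 0.112) or siRNA 4 alone (−0.57, adjusted p = 0.102), with 3 libraries a group. CHEK1 exons overlap those of STT3A on the same strand, so how the authors' counting split their reads is uncertain. STT3A was at 223 to 260 CPM in 4OHT_siNT and 172 to 245 CPM in 4OHT_siSMARCA4.

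The other kinases were not called, with log2 fold changes of −0.11 ± 0.18 for ATM, −0.11 ± 0.16 for ATR and 0.26 ± 0.17 for CHEK2. In knockdown libraries ATM was at 36.99, 42.9 and 53.0 CPM, ATR at 24.3, 30.5 and 33.4 CPM and CHEK2 at 5.36, 6.51 and 7.76 CPM. Each overlapped its 4OHT_siNT range.

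The genes with the largest falls in OIS stayed low under knockdown. CLSPN was at 0.673, 1.15 and 2.26 CPM (log2 fold change 0.78 ± 0.49, adjusted p = 0.348), RAD51AP1 at 0.33, 0.611 and 1.35 CPM (0.50 ± 0.39, adjusted p = 0.467) and EXO1 at 0.0788, 0.571 and 1.21 CPM (0.55 ± 0.45, adjusted p = 0.494). RAD54L was at 0.247, 0.415 and 0.646 CPM and BARD1 at 0.404, 0.523 and 0.605 CPM. CLSPN had 12 to 28 counts per knockdown library, and without DMSO_siNT 4-2V its adjusted p was 0.0769. BRCA2 had the largest positive value, 0.93 ± 0.36, and was not called (adjusted p = 0.108). Within VM sets the BRCA2 value was −0.034, and RAD51AP1 (1.07) and CLSPN (1.02) were higher, none of them called. FANCD2 was at 0.0864, 0.495 and 0.825 CPM (−0.61 ± 0.33, adjusted p = 0.269). Within VM sets FANCD2 was called lower (−2.06, adjusted p = 0.0142), a value that rests on 1 and 3 counts in the 2 labelled VM knockdown libraries. MSH6 was also called lower there (−0.43, adjusted p = 0.00652), but not over all sets (−0.22, adjusted p = 0.237).

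The other lists held few calls under knockdown, where 4.99% of all genes were called higher and 5.65% lower. SFR1, a recombination cofactor, rose by 0.68 ± 0.17 as the only call among 35 other homologous recombination and Fanconi genes. Among 26 other checkpoint genes 3 were called higher and 0 lower, with ETAA1, an ATR activator, at 0.68 ± 0.16 and SHLD2, a shieldin subunit, at 0.51 ± 0.16. Of 12 end joining genes 0 were called by edgeR and 0 by DESeq2, with 2 higher and 0 lower at an unadjusted p under 0.05. ERCC6, the transcription-coupled repair factor, fell by 0.56 ± 0.16, and of the base excision genes UNG, a uracil glycosylase, rose by 0.36 ± 0.10 and NEIL2, an oxidized-base glycosylase, fell by 0.40 ± 0.11. Of 25 proliferation genes 5 rose and 0 fell (edgeR calls; median 0.37). MYBL2 rose by 1.67 ± 0.46 and CDK1 by 1.44 ± 0.33, and both stayed far below DMSO_siNT, as the summed proliferation level was 110 to 141 CPM. These counts differed without the library 4-2V of DMSO_siNT, which is in neither group, and the cause was not tested. Without it, where 11.7% of all genes were higher and 12.9% lower, 4 of the other recombination and Fanconi genes were called higher and 3 lower, of the checkpoint genes 6 and 1, and of the end joining genes 2 and 0. Of the nucleotide excision genes 3 were higher and 5 lower, of the base excision genes 2 and 3, and of the proliferation genes 7 and 2. Leaving out any 1 library gave 1 to 6 checkpoint genes and 2 to 7 proliferation genes called higher.

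How the knockdown cells stood against vehicle-treated cells was read from 4OHT_siSMARCA4 and DMSO_siNT, which share libraries with both comparisons above. Of the members 25 were called lower and 2 higher, with a median log2 fold change of −1.40, where 27.3% of all genes were called lower and 23.3% higher. The largest falls were those of FANCD2 (−4.22 ± 0.29), CLSPN (−4.17 ± 0.42) and RAD51AP1 (−3.88 ± 0.32). Without 4-2V the CLSPN value was −3.62, and ATM (0.38, adjusted p = 0.0199) and FANCM (−0.47, adjusted p = 0.00849) were called too. Within VM sets FANCM was also called lower (−0.75, adjusted p = 0.0169). NBN (0.46 ± 0.14, adjusted p = 0.012) and PALB2 (0.28 ± 0.11, adjusted p = 0.0453) were called higher, and both calls were lost within VM sets (adjusted p = 0.0786 and 0.156). PALB2 was called in 7 of 18 leave-one-out fits. NBN libraries did not overlap, at 69.7 to 80.4 CPM against 30.5 to 62.8 CPM. RBBP8 (−0.37 ± 0.12, adjusted p = 0.0131) and RAD51C (−0.33 ± 0.11, adjusted p = 0.016) were called lower with overlapping libraries, and neither call held within VM sets (adjusted p = 0.117 and 0.377).

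The siRNAs were compared within each group, in a fit by treatment and siRNA number that tested all 35 members. Between siSMARCA4_2 and siSMARCA4_4, 0 members were called by edgeR and 0 had an unadjusted p under 0.05, where 0.00732% of all 13659 genes were called. Between the non-targeting siRNAs, 0 members were called in 4OHT_siNT, where 0.0732% of all genes were called, and 0 in DMSO_siNT, where 0.0512% were. At an unadjusted p under 0.05 there were 2 members in 4OHT_siNT and 7 in DMSO_siNT. The share of all genes at an unadjusted p was not computed. For each of the 7 members in DMSO_siNT, 4-2V, a siRNA 4 library, was the lowest or the highest library of that group. The largest of these DMSO_siNT differences was in CLSPN (−1.09). The difference between siRNAs in the OIS effect was called for 0 members and for 0% of all genes. That in the knockdown effect was called for 0 members and for 0.0146% of all genes. At an unadjusted p under 0.05 there were 5 and 1 members, respectively. With 3 libraries in each siRNA arm, differences of moderate size could have been missed.

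How reads were assigned bears on some members. Exons of another annotated gene overlap the canonical transcript on the opposite strand for 17 of the 35 and on the same strand for 6, among them RAD54B with FSBP, which was at 0 counts in every library. Whether the counting used strand is not given in the sources used here, so values of these members are uncertain to that extent.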

How the data were processed

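RNA was polyadenylation-selected and made into directional libraries. The authors deposited unnormalized counts per gene symbol, in 2 lanes per library. The submitters' processing notes name STAR 2.7.8a, DESeq2 1.36.0 and hg38. The annotation, the counting program and its use of strand are not given in the sources used here. Lanes were summed to 18 libraries, of which 17 matched 1 of 29 labelled samples and 1 matched its group only. No table of the authors' own comparisons was used.

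Genes were filtered with filterByExpr (minimum count 10), which kept 13136 genes with 99.9% of counts. Libraries were scaled by TMM and fitted together, without covariates, by the edgeR 4.0.16 quasi-likelihood test in R 4.3.3. P-values were two-sided and adjusted by Benjamini-Hochberg over all genes tested, and calls required an adjusted p under 0.05. SE came from the F statistic, and CPM are on the TMM scale. The common biological coefficient of variation was 23.3%. Total counts of 9657309 to 18039313 limit the precision of members with few counts. The 2 lanes of a library gave a chi-square per degree of freedom of 1.19 to 1.27 and 45 pairs of libraries in a group gave 2.33 to 315, so none was treated as a duplicate.

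The members and lists were chosen with earlier results of these data known, so no p is adjusted over a list alone. Lowest, median and highest levels are given for the 6 members with the largest fold change in each direction and main comparison, the 4 checkpoint kinases and SMARCA4. From other lists up to 2 called genes per direction are named, and 1 such gene is not reported here. Alternatives covered the scaling, DESeq2 1.42.0, the filter, the set label as a block, the groups fitted, VM sets, each siRNA, the threshold and leaving out each library.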

Additional observations from a re-analysis of the deposited data

Results flagged for a closer look

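Of 105 sets of 6 log2 CPM values, each a gene in a group, 9 held a library far from the other 5, where chance gives about 5.25. The value in each case is the gap to the nearest library as a share of the range of the group. The library DMSO_siNT 4-2V accounted for 4 of them. It was the highest for BRCA1 (gap 0.64 of the range, 30.2 CPM), RAD50 (0.676, 147 CPM) and CLSPN (0.656, 66.5 CPM), and the lowest for NBN (0.77, 30.5 CPM). In DMSO_siNT the library 2-2VM was the lowest for XRCC2 (0.723, 2.36 CPM). In 4OHT_siNT the library 4-3VM was the highest for PALB2 (0.731, 13.8 CPM) and 2-1VM the highest for ATR (0.664, 38.3 CPM). In 4OHT_siSMARCA4 the library 2-3VM was the lowest for FANCG (0.663, 4.30 CPM) and 4-2VM the lowest for CHEK1 (0.673, 5.62 CPM).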

How the results depend on the processing

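No member that was called changed its direction under any alternative run. In 4OHT_siNT against DMSO_siNT the count of members called higher, 0, became 1 with DESeq2 size factors or DESeq2 (NBN), with sets as a replicate block or with VM sets only (ATM), and ranged from 0 to 2 when 1 library was left out. A filter of 10 or more counts in every library left 24 members to test, without those that fell most, and gave 15 lower and a median of −0.92. The median was −1.79 with siRNA 2 alone and −1.09 with siRNA 4 alone. In 4OHT_siSMARCA4 against 4OHT_siNT the 2 members called higher became 1 at an adjusted p under 0.01, with siRNA 2 alone or with siRNA 4 alone, 0 with a change over 2-fold or with the block, and 1 to 2 when 1 library was left out. The 1 called lower became 0 with a change over 2-fold, the block, siRNA 2 alone or siRNA 4 alone, and 3 with VM sets only. In 4OHT_siSMARCA4 against DMSO_siNT the 2 called higher became 0 at an adjusted p under 0.01, with a change over 2-fold, the block, VM sets only or siRNA 2 alone, and 1 with total counts, at least 10 counts in every library, only the 2 groups or siRNA 4 alone, and ranged from 1 to 3 in the leave-outs. There the filter of 10 counts gave 15 lower and a median of −0.91, and VM sets gave a median of −1.21. SMARCA4 kept its knockdown call in the leave-outs (−1.74 to −1.53). Calls over all genes changed with these settings too, as given below. Apart from the filter, where fewer members were tested, the cause of the shifts among members was not tested.

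Set names were shared by 2 sets of the groups compared in each main contrast. Deviations of same-named libraries had correlations of −0.039 (2VM) and 0.265 (3VM) in the first contrast and −0.054 and 0.159 in the second. In 4OHT_siSMARCA4 against DMSO_siNT they were −0.23 (2V), −0.073 (2VM) and 0.151 (3VM). Not every pair exceeded 0.1, so the names were not taken as a pairing, and an effect shared within sets was not tested further. With the set label as a block, CHEK1 (adjusted p = 0.0928), RBBP8 (adjusted p = 0.115) and FANCL (adjusted p = 0.425) were not called under knockdown, and TOPBP1 (adjusted p = 0.422) was not called in OIS. Over all genes, 1397 were called under knockdown, against 236 with the block, 3269 without DMSO_siNT 4-2V, 3405 with only the 2 groups and 2858 with VM sets only. An adjusted p under 0.01 gave 595, a change over 2-fold 461, siRNA 2 alone 1048 and siRNA 4 alone 370. In 4OHT_siNT against DMSO_siNT 6935 were called, against 4356 with the block and 2822 with a change over 2-fold. With 10 or more counts in every library 3274 of 11188 genes were called lower there, against 3802 of 13136. In 4OHT_siSMARCA4 against DMSO_siNT 3055 genes were called higher. An adjusted p under 0.01 made this 2349, a change over 2-fold 1013 and the block 2171. VM sets only gave 2776 and siRNA 2 alone 2620. Low counts limit the members that fell most, several of which had under 20 counts in every 4OHT library.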
